A study of Mus musculus with 7 samples.

Results

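U6 small nuclear RNA stands at the catalytic core of the spliceosome, and it is annotated in the mouse genome as a large family of near-identical genes and diverged copies. The copies described here are all transcripts whose symbol in the deposited count files was exactly U6. These were 665 transcripts, of which 664 were found in GENCODE vM1 on mm9 and were used, out of 13218 genes in all. GENCODE vM1 holds 936 genes of this name, and those outside the deposited files were not analysed here.

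The data came from E14 mouse ESCs, an embryonic stem cell line of 129/Ola origin, so that each group stands for a single line. All groups shared the lysis and the digestion of proteins by Proteinase K, and were then probed by CIRS-seq, in which reverse transcriptase (RT) stops next to a base modified by a chemical. DMS modifies the unpaired A and C bases, and CMCT the unpaired U and, to a lesser degree, G bases. The DMS libraries pooled doses from 50 to 200 mM with 2 min of incubation, the CMCT libraries pooled doses from 10 to 50 mM with 20 min, and the non-treated (NT) libraries pooled the aliquots without reagent. Each group had 2 biological replicates, and 1 RNA-seq library was made of the same cells after depletion of ribosomal RNA. With each genomic position taken once per gene, a library held 140186204 to 247369982 listed RT stops, in which a read can enter more than once.

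U6 is transcribed by RNA polymerase III and ends in a run of U bases that is bound by La and then by the LSm ring. It begins with a short hairpin, and a conserved ACAGAGA box in its middle pairs with the 5′ splice site of the intron. U6 enters the spliceosome paired with U4 and exchanges this partner for U2, and the internal stem-loop formed then holds the metal ions of catalysis. In deproteinized lysate, the reagents read these bases without the proteins that cover them in the cell.

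The most frequent sequence was taken as the canonical one, and 43 copies carried it over all of its 107 bases. One of them, ENSMUST00000082444 at chr7:116918126-116918232 (mm9, minus strand, in an intron of Nrip3 on the same strand), stands for it below, and positions are counted from its first base. Bases are called paired or unpaired as RNAfold predicted them from this sequence, with 62 of the 107 bases paired.

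A few other copies carry the results. ENSMUST00000083744 (chr13:101374314-101374417, mm9, plus strand) held the most counts. ENSMUST00000083230 (chr2:119619678-119619779, minus strand), ENSMUST00000083036 (chr1:183743738-183743831, minus strand) and ENSMUST00000083301 (chr5:81322679-81322781, plus strand) held, with it, the largest counts above those of the canonical copy at a single position. These 4 copies were 104, 102, 94 and 103 bases long, with 7, 5, 14 and 17 edits (bases changed, added or deleted) to the canonical sequence. ENSMUST00000082897 (chr11:16632608-16632714, minus strand) held the most counts at positions that can be told apart in the genome. ENSMUST00000157179 (chr1:100913941-100914040, plus strand) is a diverged copy with one of the largest rises in CMCT.

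The 664 copies were 54 to 120 bases long, and 361 had the canonical length. They held 603 distinct sequences, with a median of 12 edits to the canonical one and at most 56, and 181 copies lay within 5 edits. The ACAGAGA box, at canonical positions 41 to 47, was kept letter for letter in 488 copies. The copies lay on 20 chromosomes. Between genes lay 413 of them, 136 lay in introns of a gene on the other strand and 109 in introns of a gene on the same strand, while 4 overlapped an exon on the same strand and 2 an exon on the other strand.

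Replicate counts have to be described before the results, since they did not vary on U6 as on other transcripts. Positions with at least 50 RT stops in both replicates together were compared. On transcripts other than U6, the counts of the 2 replicates differed by at most 1 at 18.7% of these positions in NT, 21.3% in DMS and 19.3% in CMCT. On U6 positions followed by the same 25 bases as in the canonical copy, these shares were 28.5%, 22.3% and 34.5%. Where the following 25 bases differed from the canonical ones, they were 92.1%, 89.9% and 93.6%. At U6 positions whose following 25 bases occur once in mm9, they were 95.0%, 95.5% and 96.2%.

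The 25 bases after a position are the shortest stretch a counted read covers, since a read begins at the base after the stop and no stop was counted in the last 25 bases of any transcript. On most diverged copies, the replicates thus differed by less than counting noise and gave 1 value per treatment rather than 2. For 269 copies, the replicate totals differed by at most 1 count in all 3 treatments. The raw counts of such copies carry no spread between replicates, while the test scales them to library size. The spread it sees is then that of the scaling. For ENSMUST00000157179, CMCT counts of 1728 and 1727 became 6.83 and 11.4 once scaled to library size. The adjusted p-values of such copies are thus no replicate check, and they are given below as counts only. Whether they are too small or too large was not tested. What made the replicate counts equal was not tested.

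**Figure D1:**
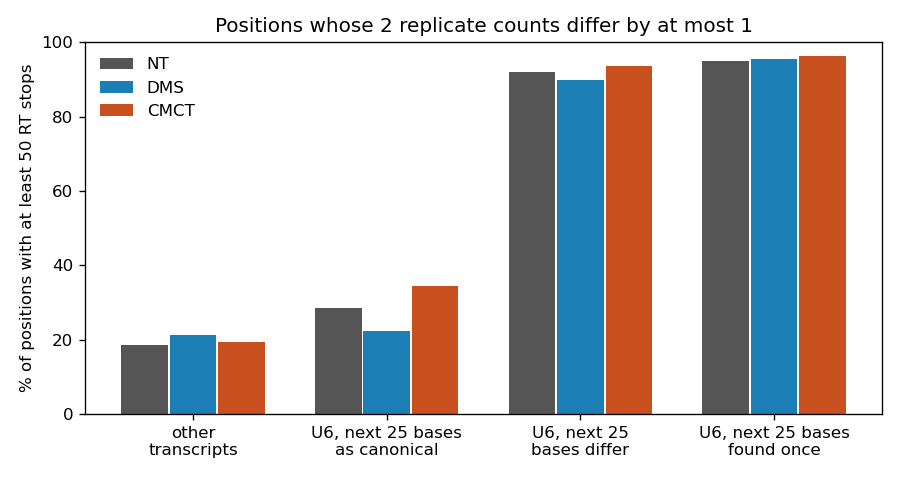
Share of positions with at least 50 RT stops whose replicate counts differed by at most 1 (y axis, percent), for transcripts other than U6 and for U6 positions by the 25 bases that follow them. Bars are coloured by treatment. The bars stand at 18.7% to 21.3% for other transcripts and at 89.9% to 96.2% for U6 positions whose following bases differ from the canonical copy or are found once.

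The first question was how many copies carried counts of their own. In every CIRS-seq library, 663 of the 664 copies had RT stops, and the totals over the 6 libraries ran from 105 to 377484 with a median of 69083. The total was below 1000 in 78 copies and above 300000 in 78 others. Taken as a profile over positions and libraries, the counts took 623 distinct forms, of which 611 belonged to 1 copy each when counts had to be equal. With a tolerance of 1 count at every position and library, 587 copies had no other copy of their length with the same counts. A difference at a single position or library sets a profile apart, so that a distinct profile can still share counts with other copies. The base aligned to the most frequent CMCT stop of the canonical copy is an example. There, ENSMUST00000082692, ENSMUST00000082897, ENSMUST00000083446 and ENSMUST00000083072 held 36895, 36891, 36895 and 36892 stops in CMCT replicate 1. Each is followed there by 25 bases found once in the genome, and other such copies held other counts, as given below.

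The 43 canonical copies, which no read can tell apart, carried the same counts to within 1 count at every position. Each of them was listed with 19749 and 21238 stops in NT, about 35396 and 39153 in DMS, and 101647 and 90907 in CMCT. Reads of one sequence were thus listed on every copy that carries it, and whether each copy received the whole count or an even part of it cannot be told apart from the counts. The canonical copies together held 17.9% of all U6 counts.

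Counts fell with the distance from the canonical sequence. For the 66 copies with 1 or 2 edits, the median in CMCT replicate 1 was 90756 stops, and for the 72 copies with 3 to 5 edits it was 73768. It was 36912 for the 117 copies with 6 to 10 edits, 11513.5 for the 164 copies with 11 to 20, and 577 for the 202 copies with 21 to 56. The last group overlapped the others, with copies from 5 to 74269 stops. The same order of medians held in NT, with 17591.5 stops in replicate 1 for 1 or 2 edits and 83 for 21 to 56.

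**Figure D2:**
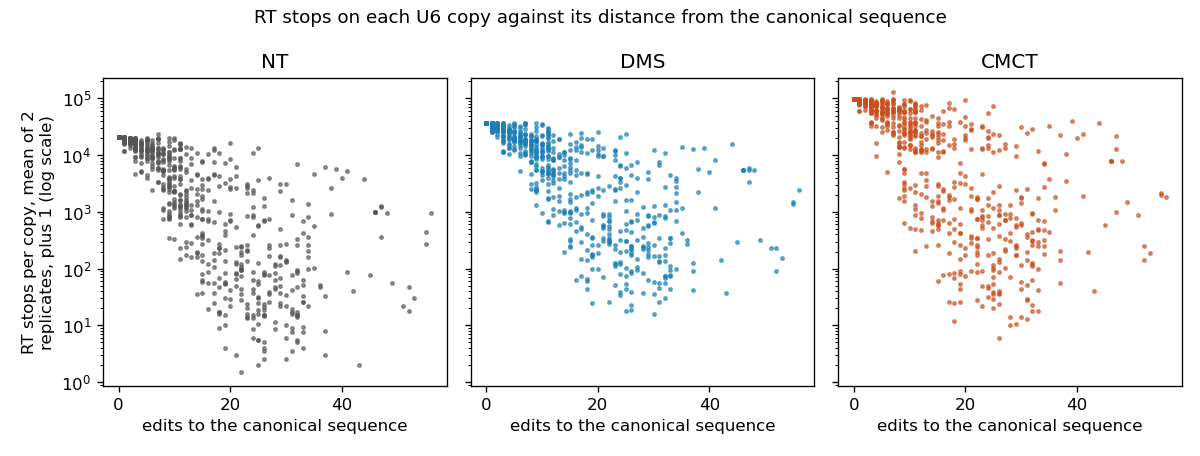
RT stops per U6 copy (y axis, mean of 2 replicates plus 1, log scale) against its edits to the canonical sequence (x axis), with 1 point per copy and 1 panel per treatment. The cloud falls from the canonical copies at the left to copies with few stops beyond 20 edits, and it stays wide at the right.

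Only a small share of U6 stops lay at positions whose following 25 bases occur once in the genome. This share was 8.43% and 8.13% in the NT replicates, 10.1% and 9.64% in DMS, and 10.2% and 10.8% in CMCT. Both treatments lay above NT, and DMS and CMCT lay close together. With 36 following bases, DMS lay above CMCT (22.2% and 21.2% against 18.6% and 19.7%), so that the order of DMS and CMCT depended on the length searched. No such position was found in 116 copies, and 83 copies had all of their counts at such positions.

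The CMCT count at canonical position 23, where CMCT stops were most frequent, was followed through the copies. In the 171 copies with the same 25 bases after it, the median was 41992 stops in CMCT replicate 1. With 1 differing base it was 27431.5 (126 copies), with 2 it was 8513 (99 copies), with 3 it was 498 (112 copies) and with 4 it was 3 (41 copies), and from 5 differing bases on it was 0.

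In 16 copies with 1 differing base, the following 25 bases occur once in the genome, and these copies still held 9802 to 36910 stops in CMCT replicate 1. Their median was 28680. In 57 copies with 2 differing bases and a stretch found once, the median was 9446 and the range 3 to 30113, and in 100 copies with 3 it was 505.5 and 3 to 14245. In 37 copies with 4, the median was 2 and the range 0 to 8483, and in 85 copies with 5 or more the median was 0. How the authors let reads with mismatches or several places in the genome be counted is not given in the sources used here, which did not include the supplementary methods of the study.

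**Figure D3:**
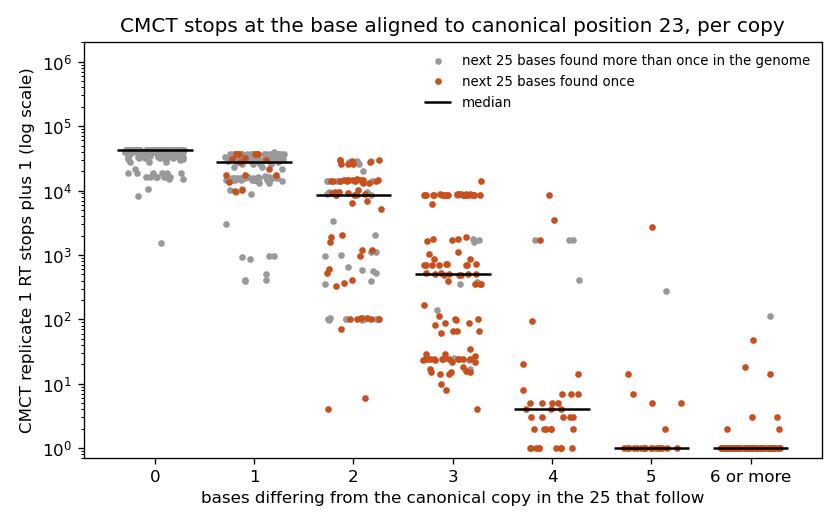
CMCT replicate 1 RT stops plus 1 (y axis, log scale) at the base aligned to canonical position 23, with 1 point per copy, against the number of differing bases in the 25 that follow (x axis). Black lines are medians, which fall from 41992 stops at 0 differing bases to 3 at 4 and to 0 from 5 on, and coloured points are copies whose following bases are found once.

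The copies with most counts at positions found once were ENSMUST00000082897, ENSMUST00000083366, ENSMUST00000083446, ENSMUST00000083072 and ENSMUST00000082692, with 2, 5, 2, 12 and 1 edits. ENSMUST00000082897 held 16949 and 17322 stops in NT, 30140 and 30960 in DMS, and 85832 and 79259 in CMCT, and 85.6% of them lay at positions found once. For the other 4, this share was 69.1% to 87.4%, and the totals were 223299 to 265647. All 5 lay below the total of 308090 of a canonical copy.

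Some copies exceeded the canonical copy at single positions. A surplus of at least 1000 counts over the 6 libraries was seen in 72 copies, and in 22 of these the largest surplus lay at canonical position 40, the U base before the ACAGAGA box. At this position the canonical copy held 797 and 886 stops in NT, 4595 and 2116 in DMS, and 6341 and 1026 in CMCT. Its CMCT replicates and its DMS replicates lay far apart, and the DMS replicates exceeded both NT replicates.

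At the aligned base of ENSMUST00000083230, the counts were 10512 and 10600 in NT, 13771 and 11293 in DMS, and 59170 and 53856 in CMCT. Those of ENSMUST00000083744 were 7187 and 7289, 10155 and 7815, and 40540 and 35360. ENSMUST00000083301 held 6267 and 6269, 5528 and 5513, and 33868 and 33866. All 3 copies are followed there by the same 25 bases as the canonical copy, which occur at 247 places in the genome, and yet their counts lay above the canonical ones in every library. Most of the 243 copies followed there by these bases did not lie above the canonical count. In CMCT replicate 1, 11 of the 243 lay above the canonical count by more than 1 stop, 104 within 1 stop of it and 128 below it, of which 84 had fewer than 10 stops.

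ENSMUST00000083036, which lacks a stretch from the middle of the canonical sequence, held its surplus elsewhere. At its position 27, it had 7494 and 7494 stops in NT, 6733 and 6726 in DMS, and 39707 and 39702 in CMCT, against 345 and 361, 929 and 1131, and 428 and 415 in the canonical copy. It exceeded the canonical copy in every library. The same 25 bases follow at 3 places in the genome.

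RNA-seq gave little on these RNAs. Of 31857551 alignments, 221 lay on U6 copies on the same strand and 144 on the other strand, in 103 copies, and 3 lay on canonical copies. The level of single copies could not be read from so few alignments, and why they were few was not tested.

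The family as a whole took a larger share of RT stops after treatment. U6 held 2.47% and 2.88% of all stops in the NT replicates, 5.02% and 5.90% in DMS, and 9.87% and 16.3% in CMCT. Where one read was listed on several copies it enters these shares several times, so that they are shares of listed stops and not of molecules. As mean ± SD (n = 2), this was 13.1% ± 4.5 with CMCT, 5.46% ± 0.62 with DMS and 2.68% ± 0.30 without treatment. The groups did not overlap, and the CMCT replicates lay farther apart than NT and DMS. The U6 stops of the CMCT replicates were 24406582 and 22786999, while their library totals were 247369982 and 140186204. The gap between the CMCT shares thus lay mostly in the library totals, which the U6 counts did not follow. An exact permutation test of 2 against 2 cannot give a two-sided p under 0.333, so none is given. A count of stops rises with the amount of the RNA and with its stops per molecule, and in bulk samples neither these nor the number of cells and the RNA per cell can be told apart.

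**Figure D4:**
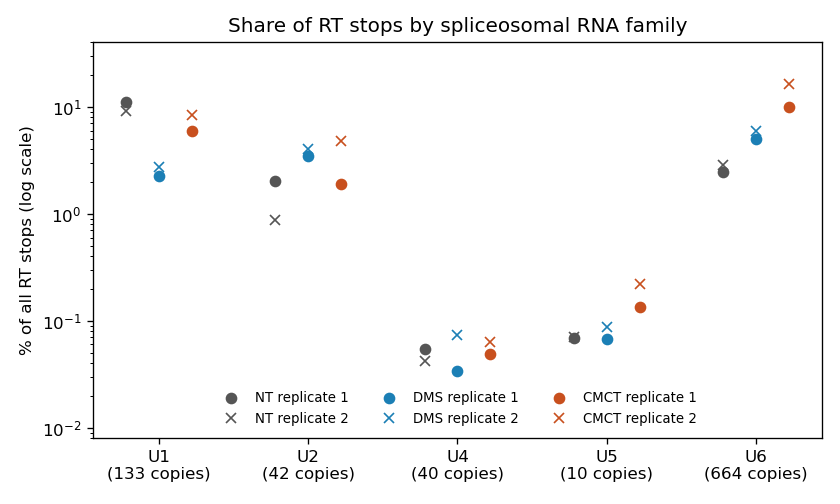
Share of all RT stops (y axis, percent, log scale) held by each family of spliceosomal RNA (x axis, with its number of copies), with 1 point per library. U6 rises from 2.47% and 2.88% in NT to 9.87% and 16.3% in CMCT, and its groups do not overlap.

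The other snRNA families gave several orders. U1, which pairs with the 5′ splice site first, held 11.2% and 9.18% in NT, 2.24% and 2.74% in DMS, and 5.94% and 8.33% in CMCT. U2, which pairs with the branch point, held 2.01% and 0.869% in NT and 3.43% and 3.99% in DMS, without overlap, so that a larger share after DMS was also seen in U2. In CMCT, U2 held 1.89% and 4.80%, which overlapped NT. U4, the pairing partner of U6, held 0.0546% and 0.0421% in NT, 0.0339% and 0.0733% in DMS, and 0.0494% and 0.0637% in CMCT, with overlap throughout, although its means (0.0484%, 0.0536% and 0.0565%) stood in the order of those of U6. U12, of the minor spliceosome, held 0.00390% and 0.00210% in NT, 0.00984% and 0.00595% in DMS, and 0.00606% and 0.00647% in CMCT. It lay above NT in both treatments without overlap. So did the single copies of U4atac and U7, the latter with only 5.51e-07% and 2.45e-06% in NT. U6atac held 0.00132% and 0.00141% in NT, 0.000991% and 0.00145% in DMS, and 0.000920% and 0.00148% in CMCT. Its groups overlapped, and its means were lower in DMS (0.00122%) and CMCT (0.00120%) than in NT (0.00136%).

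By the profile of shares over the 6 libraries, the 5 families nearest to U6 among 163 were AC166574.2, AC140983.1, AL772271.2, U5 and AC122057.1. The first 3 are single snRNA genes named after clones, with 2, 3 and 9 edits to the canonical U6 sequence, so that U6-like sequences also lay outside the symbol used to choose the copies. U5, which aligns the exons, differs from the canonical U6 by 58 to 62 edits and held 0.0697% and 0.0705% in NT, 0.0682% and 0.0878% in DMS, and 0.133% and 0.221% in CMCT. Its means stood in the same order as those of U6, with DMS overlapping NT. U5 was not tested as a family, and in the edgeR test described next 3 of its 10 copies were higher in CMCT, where 15% of all genes were called higher.

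In the edgeR quasi-likelihood test over all genes (Benjamini-Hochberg adjusted p under 0.05), 588 of the 664 copies were higher and 4 lower in CMCT than in NT. Of all 13216 genes tested, 15% were called higher and 13.9% lower, 29% in all. The median log2 fold change was 1.81 over the U6 copies and 0.11 over all genes. Since copies of one sequence repeat one count, these are not 664 separate measurements. Among the 285 copies whose replicate totals lay more than 1 SD of counting noise apart in at least 1 treatment, 273 were higher and 0 lower. These 285 had a median of 4 edits, from 0 to 56, and so they too include copies that repeat one count.

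For DMS, 322 copies were higher and 0 lower than in NT, where 13.8% of all genes were called higher and 12.5% lower, 26.4% in all. No copy was lower at an unadjusted p under 0.05 either, nor with DESeq2. The median log2 fold change was 0.91, against 0.01 over all genes. Of the same 285 copies only 29 were higher in DMS, against 234 of the 269 copies whose replicate totals differed by at most 1. The median log2 fold change in DMS was 0.38 in the 285 copies and 1.77 in the 269, so that these copies differed in fold as well as in replicate spread.

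The canonical copies rose in CMCT by a log2 fold change of 1.73 ± 0.41 (SE, edgeR adjusted p = 0.0077), and all 43 passed. In DMS, their log2 fold change was 0.38 ± 0.40 (edgeR adjusted p = 0.51), and none passed. Both DMS counts lay above both NT counts, but not by more than the fitted spread. Fewer copies passed in both treatments when either NT replicate was left out. Without NT replicate 1, the median log2 fold change of the U6 copies was 1.60 in CMCT and 0.71 in DMS. Over all genes it was then 0.19 and 0.09. Without NT replicate 2, it was 2.07 and 1.13 over the U6 copies, and 0.06 and -0.04 over all genes.

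Counts at positions found once can repeat those of other copies, as given above. With such positions alone, 514 copies could be tested. Of these, 197 were higher and 36 lower in CMCT, and 244 higher and 3 lower in DMS, with median log2 fold changes of 1.33 and 1.48. Of all 11521 genes tested at such positions, 4.35% were called higher and 1.22% lower in CMCT, and 6.3% and 2.64% in DMS. At all positions, the same 514 copies had medians of 1.92 and 1.27, so that the larger median passed from CMCT to DMS with this choice of positions.

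ENSMUST00000083744 was the copy with most counts, with 22867 and 24234 stops in NT, 36254 and 38380 in DMS, and 133141 and 122608 in CMCT. Its log2 fold change in CMCT was 1.95 ± 0.42 (edgeR adjusted p = 0.0049), and at its 15 positions found once, which held 0.424% of its counts, it was -1.35 (adjusted p = 0.21). The next 4, ENSMUST00000082555, ENSMUST00000082729, ENSMUST00000101905 and ENSMUST00000102032, differ from the canonical copy at the last base only, which was not measured. They had 308112 stops each, against 308090 for the canonical copy, and a log2 fold change of 1.73 in CMCT.

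The largest rises in CMCT belonged to ENSMUST00000157210, ENSMUST00000157917, ENSMUST00000157179, ENSMUST00000157234 and ENSMUST00000157570, with log2 fold changes of 5.63 to 5.78 and 26 to 37 edits. ENSMUST00000157179 had 25 and 24 stops in NT, 345 and 345 in DMS, and 1728 and 1727 in CMCT, all at positions found once. In all 5 copies, the replicates differed by at most 1 count in every treatment. Their rise therefore has no replicate check, and no p is given.

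Only 4 copies were called lower in CMCT, ENSMUST00000157217, ENSMUST00000158512, ENSMUST00000158665 and ENSMUST00000104077. ENSMUST00000157217 held 138 and 138 stops in NT, 225 and 225 in DMS, and 21 and 21 in CMCT, a log2 fold change of -3.21. The other 3 had log2 fold changes of -1.83, -1.43 and -1.28, again with replicates within 1 count. At positions found once, the log2 fold change of ENSMUST00000104077 was 1.21.

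The largest rises in DMS were those of ENSMUST00000158349, ENSMUST00000122621, ENSMUST00000122693, ENSMUST00000158668 and ENSMUST00000158756, which had 0 to 41 stops in the NT libraries. ENSMUST00000158668 had 41 and 41 stops in NT, 871 and 871 in DMS, and 140 and 140 in CMCT. Here too all replicates lay within 1 count of each other.

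The second question was where the stops lay along the RNA. On the canonical copy, positions 1 to 82 could be measured. The most frequent CMCT stop was at U23, in the single strand that follows the first hairpin in the predicted fold. It held 41992 and 39983 of the CMCT stops, which is 42.6% ± 1.9 (SD, n = 2), against 2792 and 3363 in NT (15.0% ± 1.2) and 3362 and 4005 in DMS (9.86% ± 0.52). U23 was also the most frequent stop in NT.

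Its neighbours were high as well. C25 held 15416 and 14803 CMCT stops, A22 held 9161 and 9074, and A24 held 4644 and 4382. Positions 22 to 25 together held 70.1% and 75.1% of the CMCT stops of the copy, against 26.4% and 28.0% in NT and 17.9% and 20.0% in DMS. The concentration thus lay on a run of 4 bases of which only 1 is a U.

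**Figure D5:**
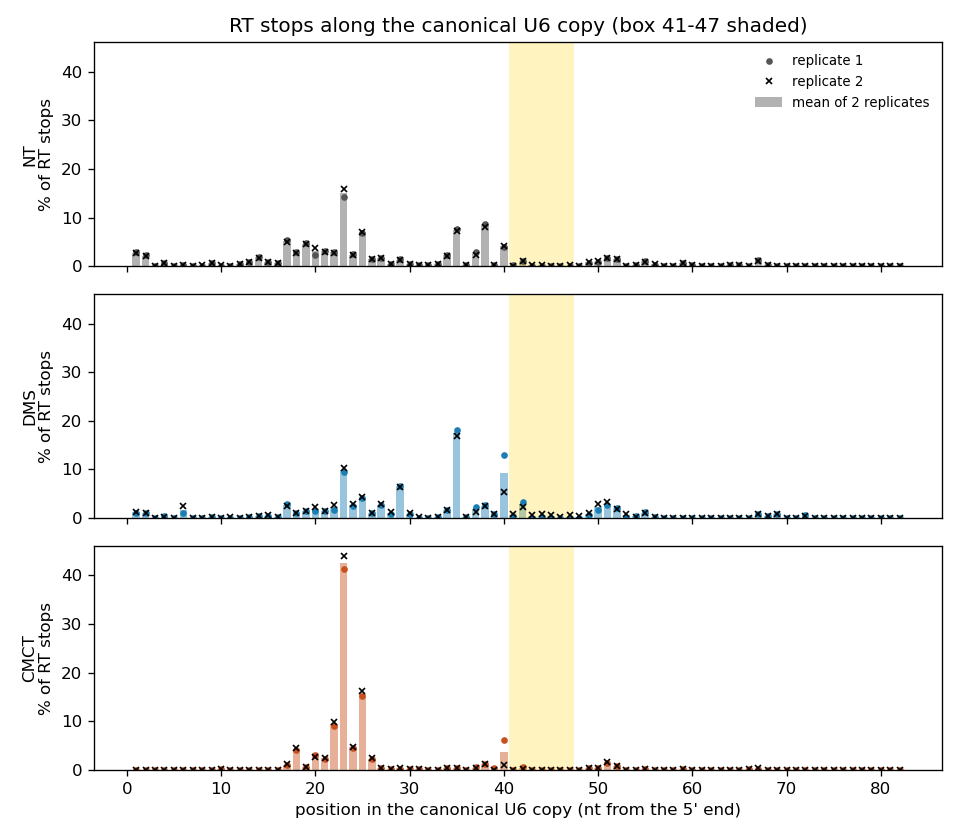
Share of the RT stops of the canonical U6 copy (y axis, percent) at each measured position (x axis, nt from the 5′ end), with 1 panel per treatment, bars for the mean of 2 replicates and points for each replicate. CMCT stops gather at positions 22 to 25 with 42.6% at position 23, DMS stops are highest at position 35, and the replicates part at position 40.

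In the edgeR test per position, with the total of the copy as offset, 6 canonical positions rose and 35 fell in CMCT of 68 tested. Over all transcripts, 4.74% of the positions were called higher and 4.3% lower, 9.04% in all. U23 rose by a log2 fold change of 1.51 ± 0.11 (SE, adjusted p = 0.0062), C25 by 1.17 ± 0.10 (0.0088), A22 by 1.73 ± 0.23 (0.025), A24 by 0.98 ± 0.13 (0.026), U26 by 0.72 ± 0.12 (0.038) and C66 by 1.07 ± 0.20 (0.047). C66 held 13 and 14 stops in NT and 133 and 133 in CMCT, so that its call has no replicate check. On the canonical copy, the median gap between replicates was 0.437 SD of counting noise in NT, 2.10 in DMS and 0.349 in CMCT. On other transcripts it was 1.71, 1.71 and 2.25.

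Shares along a copy sum to a constant, so that the rise of these few positions lowers the others. With library totals in place of the copy total, 11 positions rose and 10 fell, and U10, A18, U21, U31 and U51 passed as further rises, so that rises at U bases went from 2 to 6. In that fit, 70601 of the 698485 positions of all transcripts rose and 30551 fell. Positions 22 to 26 and 66 rose under both scalings. With the replicate number as a block, 3 positions rose (A22, U23 and C25), and A24, U26 and C66 did not pass. Without NT replicate 1, without NT replicate 2 or without CMCT replicate 2, none of the rises passed, although 7, 6 and 8 positions were higher at an unadjusted p under 0.05. A group of 1 sample was then assumed to vary like the others. Over all transcripts, rises in CMCT were also far fewer in these fits than in the main fit. The loss of calls was thus not particular to U6. With each library left out, the log2 fold change ran from 1.43 to 1.59 at U23, from 1.12 to 1.22 at C25 and from 0.65 to 0.79 at U26, so that the folds moved little while the threshold was missed.

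Falls in CMCT included the first base and bases of the hairpin. G1 held 564 and 563 stops in NT and 47 and 24 in CMCT, and C14 held 373 and 373 in NT and 47 and 46 in CMCT. A35 held 1497 and 1527 in NT and 467 and 449 in CMCT, although the CMCT totals of the copy were larger. These 3 positions fell under both scalings. The replicates of C14 lay within 1 count in both groups, as did those of G1 in NT, so that this agreement is no replicate check.

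DMS gave another profile. A35 was its most frequent stop, with 6447 and 6648 stops in DMS against 1497 and 1527 in NT, 17.6% ± 0.87 of the stops against 7.39% ± 0.28. A29 held 2363 and 2543 in DMS against 274 and 285 in NT. Both are A bases, which DMS modifies, and both are paired in the predicted fold.

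Of the 68 canonical positions tested, 10 rose and 20 fell in DMS, where 13.2% of all positions were called higher and 8.36% lower, 21.5% in all. The log2 fold change was 1.25 ± 0.11 at A35 (SE, edgeR adjusted p = 0.0090), 2.27 ± 0.12 at A29 (0.0074), 5.55 ± 0.24 at A69 (0.0074) and 2.94 ± 0.19 at G72 (0.0076). A69 held 301 and 302 stops in DMS and 3 and 4 in NT, and G72, a base outside the preference of DMS, held 209 and 210 against 15 and 15. The SE and adjusted p of A69 and G72 thus rest on replicates within 1 count and measure no spread between independent counts. The other rises were at C6, A27, A28, A30, U51 and C68. Of the 10 rises, 8 were at A or C bases. With library totals as the scaling, 7 positions rose and 8 fell, and A27, A30 and U51 were not among the rises. In that fit, 111967 of the 698485 positions of all transcripts rose and 90970 fell. With the replicate number as a block, 10 rose and 17 fell, with A50 among the rises and C6 not. The DMS replicates at C6 held 356 and 977 stops, against 48 and 55 in NT.

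The calls in DMS were lost in the same way. Without NT replicate 1, without NT replicate 2 or without DMS replicate 2, 0 positions passed in either direction, with 11, 11 and 12 higher and 23, 21 and 24 lower at an unadjusted p under 0.05. In these fits none of the 698485 positions of all transcripts passed in DMS, so that the lost calls say nothing particular to U6. Over the 6 fits with a library left out, the log2 fold change ran from 1.20 to 1.30 at A35, from 2.25 to 2.29 at A29 and from 2.00 to 3.31 at C6. A35 and A29 stood out in both replicates by count, with no overlap between DMS and NT. At A69 and G72, DMS also lay above NT, but the replicates lay within 1 count of each other, so that their agreement is no replicate check.

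The ACAGAGA box was not a site of frequent stops. It held 1.5% and 1.89% of the stops of the canonical copy in NT, 4.02% and 6.05% in DMS, and 0.906% and 0.144% in CMCT. DMS lay above NT and CMCT below it in both replicates. At A45, in the box, DMS held 13 and 283 stops against 3 and 3 in NT, a difference between replicates larger than that between treatments. The bases after the box, 48 to 82, held 9.81% and 9.69% of the stops in NT, 12.6% and 15.6% in DMS, and 4.32% and 4.80% in CMCT, and the last 7 of them had at most 9 stops in any library.

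By base, 54.9% and 53.2% of the CMCT stops of the canonical copy lay at U bases, against 29.4% and 30.9% in NT, and U made up 15 of the 82 measured bases. The G bases, also a target of CMCT, held 2.81% and 3.03% in CMCT against 19.6% and 18.6% in NT. In DMS, A bases held 41.2% and 47.3% against 25.3% and 26.2% in NT, and C bases 17.9% and 17.2% against 25.7% and 24.4%. U23 carried the rise of this summed share, while the other 14 U bases together held 13.6% and 9.22% in CMCT against 15.3% and 15.0% in NT. Single U bases among them, such as U26, rose all the same, as given above. C and G bases did not rise in share with their reagents.

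By predicted structure, 88.7% and 88.5% of the CMCT stops lay at bases predicted to be unpaired, against 47.1% and 50.2% in NT. Most of them were at unpaired U bases, with 54.5% and 52.7% of all CMCT stops at 9 bases, while the 6 paired U bases held 0.435% and 0.459%. In DMS, unpaired bases held 47.8% and 49.4%, within the range of NT. The fold was predicted from the sequence alone and does not show how U6 was folded in the lysate.

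Over all U6 copies, 55.0% and 54.1% of the CMCT stops lay at U bases, against 30.0% and 30.9% in NT. Moving every stop by 1 nucleotide lowered the CMCT share to 16.2% upstream and to 30.2% downstream (means of 2 replicates). It also lowered the NT share, to 12.3% and 12.01% upstream and to 20.5% and 21.4% downstream, so that the drop was not particular to CMCT.

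Position by position, 21255 U6 positions were tested. In CMCT, 2252 rose and 11128 fell, against the background shares of 4.74% and 4.3% given above. With library totals as the scaling 5763 rose and 3671 fell, where 70601 and 30551 of the 698485 positions of all transcripts did. In DMS, 4411 rose and 6635 fell, against background shares of 13.2% and 8.36%. With library totals 5162 rose and 2593 fell, where 111967 and 90970 of the 698485 positions did. The balance between rises and falls was thus set by the scaling. By base, rises in CMCT were called at 17.8% of the U positions tested, 12.9% of the A, 9.38% of the C and 0.991% of the G positions, and rises in DMS at 38.8% of the A, 11.7% of the C, 11.8% of the G and 11.95% of the U positions.

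Some of the canonical calls recurred in most of the copies tested, and others did not. At the base aligned to canonical position 23, 469 of the 511 copies tested rose in CMCT and 1 fell, with a median log2 fold change of 1.58. At position 22, 423 of 478 rose, and at position 25, 344 of 439. Position 24 rose in 255 of 415 copies and position 26 in 276 of 438. Position 66 rose in 73 of 252 only, and position 52, which fell on the canonical copy, fell in 149 of 442. At position 35, 454 of 476 copies rose in DMS and 451 fell in CMCT, and at position 29, 418 of 445 rose in DMS. At position 40, 9 of 241 copies rose and 12 fell in CMCT. As many copies share their sequence and their replicates often agree to 1 count, these counts describe how far the profile was carried over the copies and are not repeated measurements of it.

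ENSMUST00000083744 shared the main stops of the canonical copy and differed at other bases. Its U base at position 20, aligned to U23, held 42251 and 40243 CMCT stops, close to the canonical counts. Its position 48, aligned to U51, held 0 or 1 stops in every library, against 327 to 1455 in the canonical copy, and its first base held 70 and 70 stops in NT against 564 and 563. Its position 37, aligned to U40, held 30.4% and 28.8% of its CMCT stops and 31.4% and 30.1% of its NT stops, so that it did not differ between them (log2 fold change -0.05, edgeR adjusted p = 0.87). The rises in CMCT past the threshold were at positions 19 to 22, with log2 fold changes of 0.78 to 1.52. The DMS rises included position 26 (2.55 ± 0.12, SE, adjusted p = 0.0074) and position 32 (1.48 ± 0.10, 0.0077), aligned to A29 and A35.

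Genes whose products act on U6 were read for their own RT stops. At an unadjusted p under 0.05, 21.2% of all genes were higher and 18% lower in CMCT, and 19.9% and 20.8% in DMS. With DESeq2, these shares were 19.3% and 18% in CMCT and 22% and 20.3% in DMS. Of the LSm ring, which binds the end of U6, 7 genes were tested, Lsm2, Lsm4, Lsm5, Lsm6, Lsm7 and a pair both named Lsm3, while Lsm8 was not tested. All 7 missed the edgeR threshold in both treatments, with 0 at an unadjusted p under 0.05 and, with DESeq2, 1 higher in DMS. In the list of U6 processing and annealing, Ssb, which encodes La, rose in CMCT, from 1296 and 862 stops in NT to 3354 and 1963 (log2 fold change 0.78 ± 0.24, edgeR adjusted p = 0.028), and the other 3 genes tested did not pass. This is 1 of 4, where 15% of all genes were called higher. At an unadjusted p under 0.05, 2 of the 4 were higher in CMCT and 1 in DMS, and with DESeq2 2 were higher and 1 lower in CMCT and 1 higher in DMS. Sart3, which anneals U4 to U6, had a log2 fold change of 0.44 ± 0.25 (adjusted p = 0.22).

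None of the 9 proteins of U4/U6 and the tri-snRNP passed, such as Prpf3 or Prpf8, with 2 higher in CMCT and 1 higher and 1 lower in DMS at an unadjusted p under 0.05. With DESeq2, 2 of them were higher and 2 lower in DMS. The 5 genes tested of U6 transcription, among them Snapc4 and Bdp1, did not pass either, with 1 higher and 2 lower in DMS both at an unadjusted p and with DESeq2. The median log2 fold changes of these 4 lists in CMCT ran from -0.10 to 0.56, below the 1.81 of the U6 copies.

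The cell type was checked with marker genes. All 9 markers of embryonic stem cells were counted, Pou5f1 with 10135 to 19876 stops per library, and none passed in either treatment, with 0 at an unadjusted p under 0.05 and with DESeq2. Neural Pax6, however, held 66901 to 152270 stops per library, which was more than any of the 9 in every library, in counts not corrected for length. At positions found once the order turned, with 9684 stops of Pax6 over the 6 libraries and 10599 to 56389 of the 9 markers. Neural Tubb3 held 954 to 1973, and neither of these passed. Of 4 genes of fibroblast feeders, only Col1a1 was tested, and it fell from 35208 and 35121 stops in NT to 11711 and 11594 in DMS and to 10901 and 10717 in CMCT, with few of its stops at positions found once. None of 3 endoderm markers could be tested. The part of these genes in the U6 results was not tested.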

How the data were processed

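The authors deposited, for each CIRS-seq library, raw counts of RT stops at each transcript position, already placed on the modified base, and RNA-seq alignments. Per the labels, the submitters' processing notes name Bowtie 1.0.0, TopHat2 2.0.6 and bedtools 2.17.0 on mm9. How reads with several places in the genome were counted is not given in the sources used here, and the supplementary methods of the study were not used. The authors' combined replicate files were not used.

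Transcripts were matched to GENCODE vM1, and 1 U6 transcript without annotation was left out. Following bases were searched in mm9 on both strands, while the paper mapped its reads to a version of mm9 carrying the single-base variants of E14 cells. Whether this changes which stretches were found once was not tested. Sequences of the copies, which are not reported here, were read from mm9 and aligned with edlib 1.3.9.post1, and folded with RNAfold of ViennaRNA 2.7.2. Counts per gene and per position (at least 50 over the 6 libraries, with the log transcript total as offset) were each tested in 1 fit over the 6 libraries with edgeR 4.0.16 (TMM for genes, quasi-likelihood, Benjamini-Hochberg at 0.05) in R 4.3.3, and with DESeq2 1.42.0 as an alternative. Both fits were tested on simulated counts. Errors and intervals cover only what the replicates and counts show.

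The copies and gene lists were chosen with earlier results of these data known. Copies named are the 5 with most counts, with most counts at positions found once, and with the largest rise and drop in each treatment. Those with the largest surplus, and the positions of the canonical copy, were chosen after their values were seen. The replicate numbers of compared groups deviated together for NT and DMS (correlation 0.576) but not for NT and CMCT (0.00266). The main fits took them as numbers only, so that the main DMS test leaves out a possible pairing. The fits with the replicate number as a block take it in.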

Additional observations from a re-analysis of the deposited data

How the results depend on the processing

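The count of U6 copies that differed between CMCT and NT was 592. It moved to 233 of 514 with positions found once, to 273 of the 285 copies with replicate spread (an alternative chosen after seeing the data), and to between 286 and 605 with each library left out, the lowest without NT replicate 1. For DMS, the main count was 322, it moved to 29 of the same 285, and it ran from 153, again without NT replicate 1, to 356 with each library left out. DESeq2, its size factors in edgeR and no filter left both counts within 1.5 times, and its size factors moved the median log2 fold change of all genes in CMCT from 0.11 to 0.01. With the replicate block, 604 copies differed in CMCT and 366 in DMS, as did 10966 and 10194 positions. None of these 4 counts thus moved by over 1.5 times. Over all transcripts, 19434 positions were then higher and 21840 lower in CMCT, and 94585 and 62711 in DMS, of 698485. The shares of all genes called with the block, or with a library left out, are not given here. On the canonical copy, the rises in CMCT fell from 6 to 3 with the block.

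The 13380 U6 positions that differed between CMCT and NT fell to between 4067 and 9795 with each library left out, with 4120 without NT replicate 1, 4067 without NT replicate 2, 7807 without CMCT replicate 1 and 4487 without CMCT replicate 2. The 11046 positions for DMS ran from 0 to 9169. None passed without NT replicate 1, NT replicate 2 or DMS replicate 2, with 4577, 4409 and 5008 higher at an unadjusted p under 0.05, and in these fits no position of any transcript passed for DMS. A group left with 1 sample was assumed to vary like the others. For CMCT too, fewer positions of all transcripts passed in each fit with a library left out than in the main fit. Without DMS replicate 1, 6123 passed for DMS. DESeq2 was not run per position.

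With positions found once, the U6 share of RT stops was 3.16% in NT and 7.19% in DMS, and with isoforms counted each time 1.97% and 4.08%. The share of U6 stops at positions found once for NT, DMS and CMCT moved to 5.16%, 6.49% and 7.09% with 20 bases searched, and to 17.8%, 21.7% and 19.2% with 36, where the order of DMS and CMCT turned. The U share of CMCT stops was 16.2% and 30.2% with stops moved by 1 nucleotide upstream and downstream. With each library left out, these shares were those of the other replicate.

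Of the 34 contrasts of named copies, 335 of 366 alternatives gave the same direction and side of the threshold, 29 lost the threshold, mostly without an NT replicate, and 2 turned, ENSMUST00000083744 to -1.35 and ENSMUST00000104077 to 1.21 with positions found once.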
